A study of Schmidtea mediterranea with 6 samples.

Results

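The 8 transcripts described here encode the subunits of TRiC, the chaperonin of the planarian cytosol. They are cct1A, cct2, cct3A, cct4B, cct5, cct6, cct7 and cct8A, taken by identifier from the gene tables of the study, and they are 8 of the 26558 transcripts in the expression table. Transcripts were measured by RNA-seq in trunk fragments of Schmidtea mediterranea of the asexual strain, a flatworm that rebuilds missing tissue from adult stem cells. At 72 hours of regeneration (72hR), 3 cct3A(RNAi) and 3 gfp(RNAi) libraries were compared, each from 5 pooled trunks. cct3A(RNAi) planarians had received double-stranded RNA against cct3A, and gfp(RNAi) planarians, the controls, double-stranded RNA of the jellyfish reporter gene gfp. The study describes all of these animals as starved, so no fed animals enter the comparison. RNA interference lowers a transcript in the whole animal and not in a chosen cell type, and it is no deletion of the gene.

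TRiC is a double ring in which each ring holds one copy of every subunit, all of them related to the HSP60 family. Newly made proteins, with actin and tubulin the best known among them, are folded inside the cavity of the ring with the use of ATP. In yeast, each of the subunit genes is essential. In planarians the study examined TRiC as a candidate regulator of regeneration under starvation, and the question here is how its other subunits stand when cct3A is lowered. The table used here does not separate cell types.

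Values are normalised TPM, an abundance that is corrected for transcript length, so different subunits can be set side by side. Library sums ranged from 1004960 to 1048450 TPM in cct3A(RNAi) and from 959963 to 999939 TPM in gfp(RNAi), and sequencing depth is unknown, because TPM does not keep it. All 8 subunits passed the filter on low values, a mean of at least 1 TPM, which 18062 transcripts met. The RNA comes from whole trunks, where fewer cells of a type and less RNA per cell cannot be told apart. The labels name no separate cultures, and p-values therefore speak of the spread among these pools, which may be technical.

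cct3A, the subunit that was targeted (dresden_comp435_c0_seq1), had 13.3, 13.4 and 14.0 TPM in the cct3A(RNAi) libraries, against 386, 387 and 403 TPM in the gfp(RNAi) libraries. The group mean was 13.6 ± 0.389 TPM in cct3A(RNAi) and 392 ± 9.35 TPM in gfp(RNAi) (SD, n = 3 each), a level 28.8-fold lower. This was the smallest p and the largest fall among all 18062 tested transcripts (log2 change -4.80, SE 0.035, limma adjusted p = 9.33e-10). Within the whole table cct3A stood at position 7856 by level in cct3A(RNAi) and at position 342 in gfp(RNAi). Some cct3A signal was still listed in every cct3A(RNAi) library, and the 3 libraries differed little from each other. These values cannot tell the animals' own transcript from any reads of the injected double-stranded RNA. cct3A was therefore the most abundant subunit in all gfp(RNAi) libraries and the least abundant in all cct3A(RNAi) libraries.

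**Figure D1:**
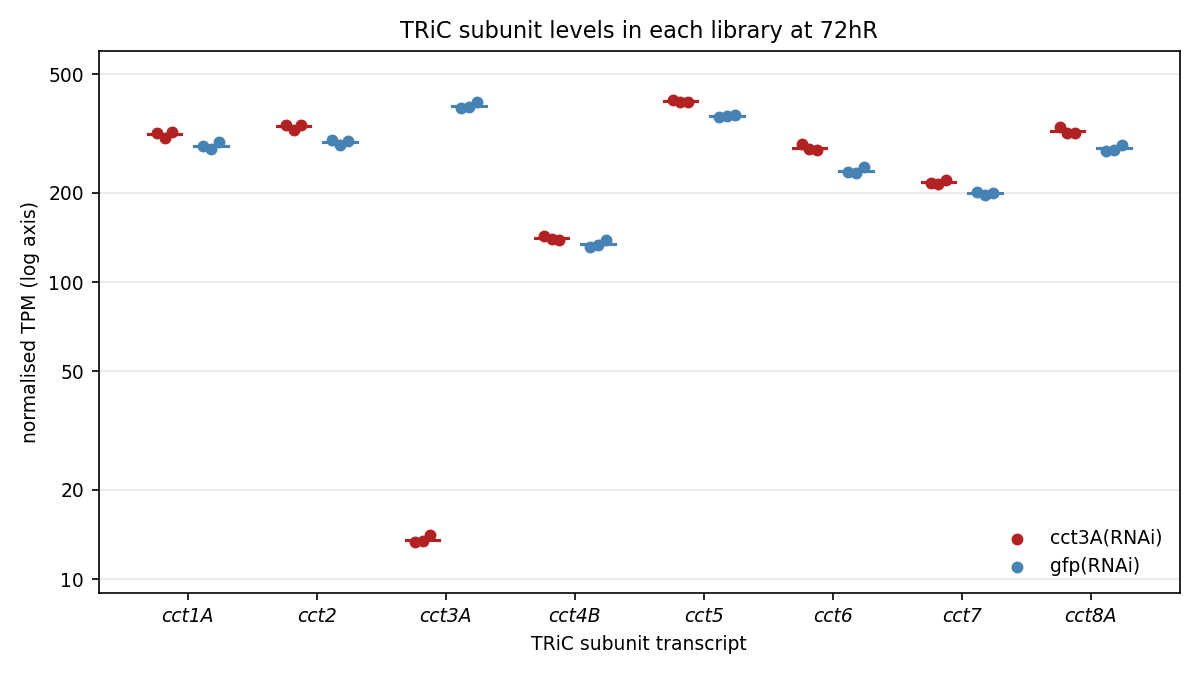
Levels of the 8 TRiC subunit transcripts in normalised TPM on a log axis, 1 point per library, with cct3A(RNAi) in red at the left of each pair and gfp(RNAi) in blue at the right, and a bar at each group mean. cct3A lies at 13.6 against 392 TPM, while each of the other 7 subunits has its cct3A(RNAi) points above its gfp(RNAi) points.

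The other 7 subunits kept nearly the same order of abundance in both groups. In cct3A(RNAi) libraries cct5 was the highest, followed by cct2, cct8A, cct1A, cct6, cct7 and cct4B. In gfp(RNAi) libraries the order below cct3A was cct5, cct2, cct1A, cct8A, cct6, cct7 and cct4B. The places of cct1A and cct8A were thus exchanged between the orders of the group means. In cct3A(RNAi), cct8A exceeded cct1A in 2 of 3 libraries, with a ratio of 1.03 ± 0.034 (SD, n = 3). In gfp(RNAi), cct1A exceeded cct8A in 3 of 3 libraries, with a ratio of 1.02 ± 0.019 (SD, n = 3), and in both groups the ranges of these neighbours overlapped. The ranges of cct2 and cct8A in cct3A(RNAi) also overlapped, as did those of cct2 and cct1A in gfp(RNAi), although cct2 was the higher of the pair in 3 of 3 libraries each time. All other neighbours in these orders were separated by more than their spread. The widest step among the 7 lay at the lower end, where cct7 exceeded cct4B by a ratio of 1.55 ± 0.040 in cct3A(RNAi) and 1.48 ± 0.044 in gfp(RNAi) (SD, n = 3 each).

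Replicate libraries of a group were close. Over the 8 subunits the coefficient of variation within a group was between 0.937% and 2.86%. The median residual SD was 0.030 on the log2 scale for the 7 subunits, against 0.081 for all tested transcripts. It was 0.052 for the 1037 tested transcripts with a mean of 100 to 500 TPM, the range in which the subunits lie. Libraries tended to be high or low for several subunits together. Among cct3A(RNAi) libraries, replicate 1 held the highest value for 5 of the 7 subunits and replicate 2 lay below the group mean for all 7. Among gfp(RNAi) libraries, replicate 3 lay above the group mean for 7 of 7 subunits and replicate 2 above it for 0 of 7. The average shift of a library was at most 0.028 on the log2 scale. These shifts are of values as deposited and depend on the scaling between libraries. Replicate 3 of gfp(RNAi) also had the largest library sum of its group (999939 TPM, against 963203 and 959963 TPM). Relative to each library's own sum, the summed level of the 7 was lowest in that replicate among gfp(RNAi) libraries. Among cct3A(RNAi) libraries on that scale, replicate 1 stayed the highest and replicate 3, not replicate 2, was the lowest.

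Every one of the 7 other subunits was higher in cct3A(RNAi), and 4 of them passed the test over all transcripts, an adjusted p under 0.05. These were cct6, cct8A, cct2 and cct5, and 0 fell. A log2 change above 0 was seen in 50.9% of all tested transcripts and in 72.3% of those with a mean of 100 to 500 TPM. The background to the 4 calls is that 4.24% of all tested transcripts passed, 1.78% as higher and 2.46% as lower. In the range of 100 to 500 TPM, 6.85% passed as higher. The 7 subunits had a median log2 change of 0.16, against 0.0034 for all tested transcripts and 0.063 for those of 100 to 500 TPM. Some of the 7 are also on a list of folding transcripts that the study picked as raised in these libraries, so for them the direction is not independent evidence.

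cct6 had the largest change. It had 292, 280.05 and 278 TPM in cct3A(RNAi), against 235, 232 and 243 TPM in gfp(RNAi), and the lowest cct3A(RNAi) library stood well above the highest gfp(RNAi) library. The mean was 283 ± 7.90 TPM in cct3A(RNAi) and 237 ± 5.51 TPM in gfp(RNAi) (SD, n = 3 each), 19.6% higher (dresden_comp527_c0_seq1, log2 change 0.26, SE 0.035, limma adjusted p = 0.0204). In yeast and mammals CCT6 is one of the neighbours of CCT3 in the ring, CCT1 being the other.

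cct8A, the theta subunit, had 333, 318 and 316 TPM in cct3A(RNAi), against 276, 278 and 290.2 TPM in gfp(RNAi). The groups did not overlap, and the mean was 322 ± 9.23 TPM in cct3A(RNAi) and 281 ± 7.69 TPM in gfp(RNAi) (SD, n = 3 each), 14.5% higher (dresden_comp903_c0_seq1, log2 change 0.20, SE 0.036, limma adjusted p = 0.0392).

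cct2, the beta subunit, had 339, 325 and 338 TPM in cct3A(RNAi), against 299.6, 289 and 297 TPM in gfp(RNAi). Again the groups were apart, at a mean of 334 ± 7.57 TPM in cct3A(RNAi) and 295 ± 5.45 TPM in gfp(RNAi) (SD, n = 3 each), 13.1% higher (dresden_comp525_c0_seq1, log2 change 0.18, SE 0.033, limma adjusted p = 0.0383).

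cct5, the epsilon subunit and the most abundant of the 7, had 410.3, 403 and 402 TPM in cct3A(RNAi), against 359.6, 361 and 366 TPM in gfp(RNAi). Its libraries were tight in both groups, at 405 ± 4.397 TPM in cct3A(RNAi) and 362 ± 3.39 TPM in gfp(RNAi) (SD, n = 3 each), 11.9% higher (dresden_comp544_c0_seq1, log2 change 0.16, SE 0.029, limma adjusted p = 0.0366).

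The remaining 3 subunits did not pass. cct1A, the planarian counterpart of TCP1, after which the complex is named, had 317, 305 and 319.7 TPM in cct3A(RNAi), against 288, 279 and 295 TPM in gfp(RNAi) (dresden_comp1025_c0_seq1). Its log2 change was 0.13, with a 95% interval of 0.043 to 0.21 (limma adjusted p = 0.0826). cct7, the eta subunit, had 216, 213 and 221 TPM in cct3A(RNAi), against 201, 196 and 199.6 TPM in gfp(RNAi) (dresden_comp847_c0_seq1). Its log2 change was 0.12, with a 95% interval of 0.054 to 0.19 (limma adjusted p = 0.0614). For both, the single-transcript interval lies above 0, and the call is missed after adjustment over 18062 transcripts.

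cct4B, the delta subunit and the least abundant of the 7, had 142, 139.6 and 139 TPM in cct3A(RNAi), against 131, 133 and 138 TPM in gfp(RNAi) (dresden_comp773_c0_seq1). The groups were separated by a gap of only 0.731 TPM, between replicate 3 of cct3A(RNAi) and replicate 3 of gfp(RNAi). Its log2 change was 0.064, with a 95% interval of -0.0097 to 0.14 (limma adjusted p = 0.247). This is the one subunit of the 7 whose interval includes 0.

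Groups did not overlap for any of the 8 subunits. Such a separation is common in these libraries, since the cct3A(RNAi) values all lay above the gfp(RNAi) values for 15.8% of all tested transcripts and for 38.1% of those with a mean of 100 to 500 TPM. The calls for the subunits were close to the threshold. With replicate 1 of cct3A(RNAi) left out, none of the 7 passed (lowest limma adjusted p = 0.0576), nor did any with replicate 1 or replicate 2 of gfp(RNAi) left out (0.0905 and 0.0882). Without cct3A(RNAi) replicate 2, cct2 and cct6 passed, and cct6 alone passed without cct3A(RNAi) replicate 3 or gfp(RNAi) replicate 3 (0.0489 and 0.0437), while their log2 changes stayed above 0. The size of the changes also rests on how libraries are scaled, since rescaling all libraries to the same sum left a median of 0.087 for the 7 subunits and only cct6 called, and cct4B turned to -0.011. That scaling moved the share of higher transcripts among all calls to 8.18%, against 41.9% as deposited.

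**Figure D2:**
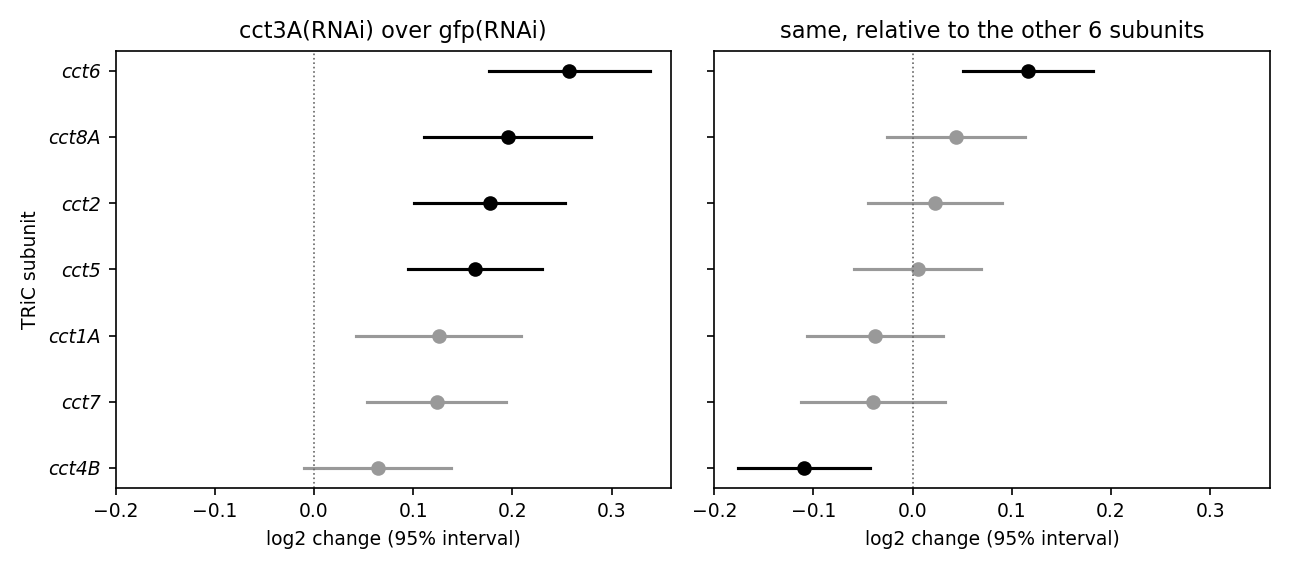
Log2 change of the 7 subunits other than cct3A with 95% intervals from limma, cct3A(RNAi) over gfp(RNAi) at the left, and the same after each library was divided by the geometric mean of the other 6 subunits at the right. Black marks an adjusted p under 0.05, which cct6, cct8A, cct2 and cct5 had at the left and cct6 (0.12) and cct4B (-0.11) at the right.

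Ratios within a library do not depend on the scaling between libraries. The level of each subunit was therefore divided by the geometric mean of the other 6, cct3A left out, and the whole table was fitted again on that scale. Relative to the others, cct6 rose and cct4B fell, and the other 5 did not pass.

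cct6 stood at 0.079, 0.058 and 0.020 on the log2 scale relative to the other subunits in cct3A(RNAi), against -0.069, -0.070 and -0.053 in gfp(RNAi). It was thus above the average of its partners in each cct3A(RNAi) library and below it in each gfp(RNAi) library. The difference was 0.12 (SE 0.028, limma adjusted p = 0.0235). Divided by the same reference, 28.4% of all tested transcripts passed, but nearly all of these fell, and 0.504% passed as higher like cct6. Non-overlapping groups were seen for 48.4% of the tested transcripts, and for 1.54% with the cct3A(RNAi) values above. The subunits in this reference were themselves higher in cct3A(RNAi). The median log2 change was 0.16 for the 7 subunits, against 0.0034 for all tested transcripts. Most transcripts therefore fall against the reference. The small shares of higher ones restate the rise of the subunits and do not measure how unusual cct6 is within TRiC. An adjusted p on this scale is eased by the many falls, since the adjustment runs over calls in both directions. Before division by the reference, cct6 stood at position 795 of 18062 by log2 change, counted from the largest rise.

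cct4B stood at -1.13, -1.11 and -1.14 on the log2 scale relative to the other subunits in cct3A(RNAi), against -1.05, -1.01 and -1.002 in gfp(RNAi). The least abundant subunit was therefore further below its partners in cct3A(RNAi), by a log2 change of -0.11 (SE 0.028, limma adjusted p = 0.0213). On its reference 40.6% of all tested transcripts passed, and 40.2% passed as lower like cct4B. The groups did not overlap for 55.9%, and for 54.9% with the cct3A(RNAi) values below, so a fall on this scale is frequent.

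For cct8A (0.044), cct2 (0.022), cct5 (0.0050), cct1A (-0.038) and cct7 (-0.040) the relative log2 change did not pass, with limma adjusted p between 0.283 and 0.900, and the groups overlapped. The 95% interval for cct5 was -0.059 to 0.069. Leaving out replicate 2 of gfp(RNAi) ended both relative calls (adjusted p = 0.0830 for cct6 and 0.0753 for cct4B). The call of cct6 was also lost without replicate 1 or 2 of cct3A(RNAi) or replicate 1 of gfp(RNAi) (0.0631, 0.0577 and 0.0710), and that of cct4B without replicate 3 of either group (0.0573 and 0.0605).

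Among the 21 ratios between the 7 subunits, the groups did not overlap for 11, or 52.4%. This is near the 51% found for ratios of outside transcripts to the same subunits. The outside ratios also hold the rise that the subunits share, so 51% is no like-for-like yardstick. No conclusion about TRiC is therefore drawn from the count. It was unevenly placed, since all 6 ratios with cct6 were among the 11, and 4 each of those with cct2 and cct4B. Ratios that share a subunit are not independent, so those with cct6 restate its relative change.

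The ratio that differed most was cct6 to cct4B. It was 2.05, 2.01 and 2.001 in cct3A(RNAi), against 1.79, 1.75 and 1.76 in gfp(RNAi). The mean ratio was 2.02 ± 0.029 in cct3A(RNAi) and 1.77 ± 0.021 in gfp(RNAi) (SD, n = 3 each), 14.4% higher. cct6 to cct7 was 1.31 ± 0.048 in cct3A(RNAi) and 1.19 ± 0.025 in gfp(RNAi), and cct8A to cct4B was 2.30 ± 0.035 in cct3A(RNAi) and 2.10 ± 0.0063 in gfp(RNAi). At the other end, cct1A to cct7 was nearly the same in both groups, with a log2 difference of 0.0019. Over all 21 ratios the SD of the log2 ratio within a group was between 0.0026 and 0.053.

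**Figure D3:**
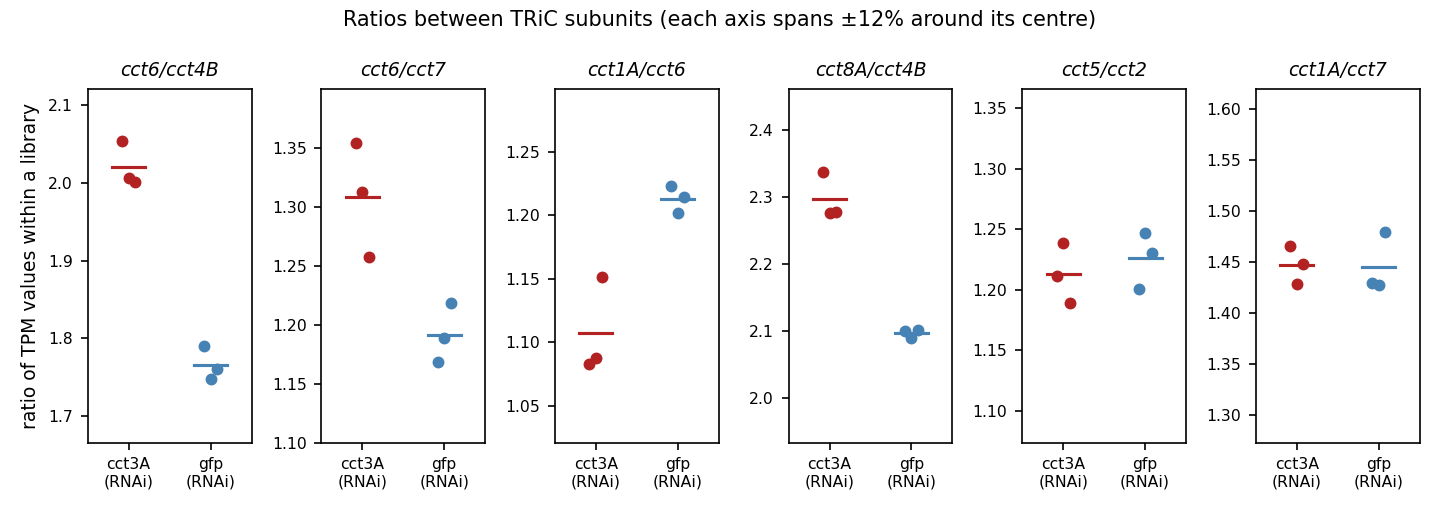
Ratios of TPM values between TRiC subunits within a library, 1 point per library, cct3A(RNAi) in red at the left and gfp(RNAi) in blue at the right of each panel, with a bar at each mean. The panels show 6 of the 21 ratios, from cct6 to cct4B (2.02 against 1.77) to cct1A to cct7, where the groups lie on top of each other.

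The spread among the 7 subunits was a little wider in cct3A(RNAi). The highest of them exceeded the lowest by a ratio of 2.89 ± 0.0090 in cct3A(RNAi) and 2.70 ± 0.044 in gfp(RNAi) (SD, n = 3 each). The SD of the log2 levels over the 7 was 0.511, 0.503 and 0.509 in the cct3A(RNAi) libraries, against 0.477, 0.470 and 0.467 in the gfp(RNAi) libraries. Groups were apart on this measure, which is a description over the members and was given no test.

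Summed over the 7 subunits, the level was 2049, 1984 and 2014 TPM in cct3A(RNAi), against 1791, 1768 and 1829.5 TPM in gfp(RNAi). The ratio of the means was 1.12, and it was 1.07 when each library was expressed relative to its own sum. With cct3A included the order turned, at 2029 ± 32.6 TPM in cct3A(RNAi) and 2188 ± 39.6 TPM in gfp(RNAi) (SD, n = 3 each). The other 7 were higher by 219 TPM in sum, which is 57.9% of the 378 TPM by which cct3A was lower, and 30.8% when values were expressed relative to each library's sum. The 8 subunits together made up 0.198% ± 0.0039 of the summed TPM of a library in cct3A(RNAi) and 0.225% ± 0.0014 in gfp(RNAi) (SD, n = 3 each).

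Within the complex, cct3A made up 0.645%, 0.672% and 0.692% of the summed level of the 8 subunits in cct3A(RNAi), against 17.7%, 18.0% and 18.0% in gfp(RNAi). The mean level of the other 7 was 21.2 ± 0.752 times that of cct3A in cct3A(RNAi) and 0.655 ± 0.0074 times in gfp(RNAi) (SD, n = 3 each). Even cct4B, the scarcest of the others, exceeded cct3A by a ratio of 10.3 ± 0.409 in cct3A(RNAi), whereas its ratio to cct3A was 0.342 ± 0.0014 in gfp(RNAi). With cct3A left out, cct6 held 14.1% ± 0.244 of the sum of the 7 in cct3A(RNAi) and 13.2% ± 0.084 in gfp(RNAi), and cct4B held 6.96% ± 0.073 in cct3A(RNAi) and 7.47% ± 0.112 in gfp(RNAi). The shares of cct1A, cct2, cct5, cct7 and cct8A overlapped between groups. cct5 held the largest share, 20.1% ± 0.183 in cct3A(RNAi) and 20.2% ± 0.212 in gfp(RNAi).

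**Figure D4:**
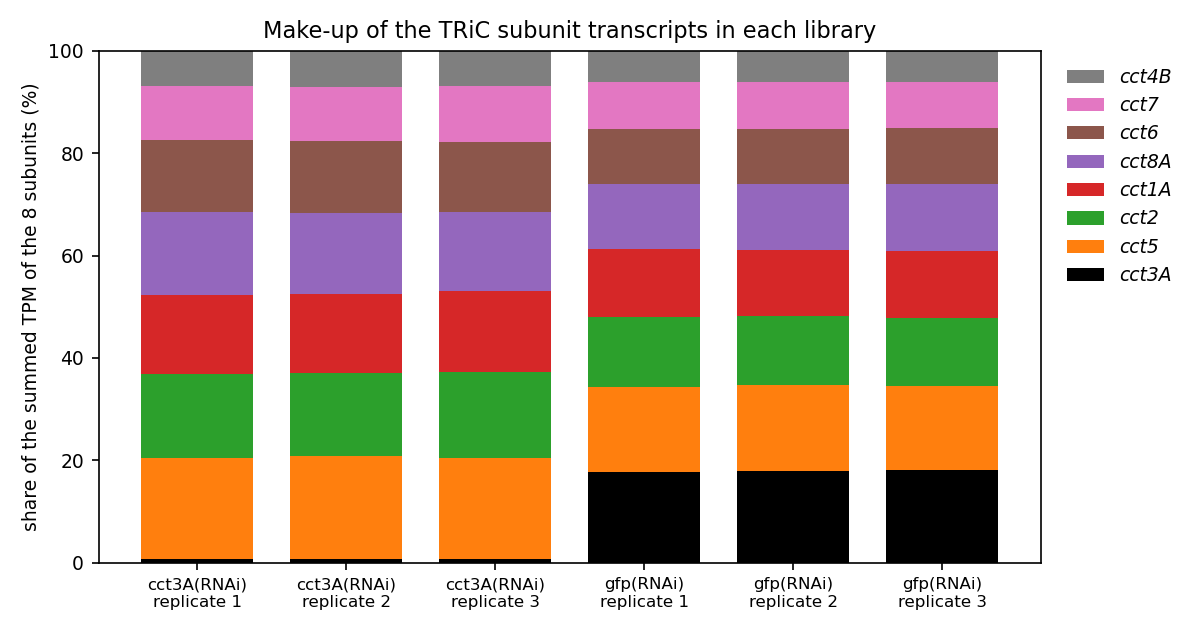
Share of each subunit in the summed TPM of the 8 TRiC subunits, 1 stacked bar per library from 0 to 100%, with cct3A(RNAi) libraries at the left and gfp(RNAi) libraries at the right. The black segment is cct3A, at 0.670% on average in cct3A(RNAi) and 17.9% in gfp(RNAi), and the other segments fill the rest in nearly constant proportions.

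The log2 profile of each transcript over the 6 libraries, centred at its own mean, was compared with mean profiles of the subunits. The distance is the root mean square difference. Each subunit was measured against the mean of the other 6, so that it is no part of its own yardstick. Outside transcripts against that same profile had a median distance of between 0.117 and 0.128. They were not matched to the subunits in level. The median residual SD was larger over all levels (0.081) than at 100 to 500 TPM (0.052), which widens these distances. cct5 lay nearest to its partners (0.013, with 8 transcripts outside TRiC nearer). cct4B (0.057, with 1782 nearer) and cct6 (0.061, with 2982 nearer) lay farthest among the 7. These counts are of the 18062 tested transcripts with the 8 subunits left out. Each profile spans both groups, so the distance also holds the change between them. cct4B had the smallest and cct6 the largest log2 change of the 7 (0.064 and 0.26). The 3 outside transcripts nearest to the mean of all 7 had no name in the gene tables used here, and dresden_comp462_c0_seq1 was the first of them. Its distance was 0.0072, and its level was 404, 390.5 and 399 TPM in cct3A(RNAi), against 352, 351 and 365 TPM in gfp(RNAi). For cct3A no transcript was near. The nearest, dresden_comp28318_c0_seq2, had a distance of 1.22 and was listed at 0 in all cct3A(RNAi) libraries, with 3.09, 2.13 and 1.49 TPM in gfp(RNAi). Its mean of 1.12 TPM met the filter only through gfp(RNAi), and its distance depends on the pseudocount of 0.5.

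Other cytosolic chaperones were compared, since TRiC works beside the HSP70 and HSP90 systems, which can hand it unfolded proteins. Of 11 tested transcripts taken from the study's tables of stem cells in starvation, 4 rose, 0 fell and 10 were above 0, with a median log2 change of 0.15. Of all tested transcripts, 1.78% rose, 2.46% fell and 50.9% were above 0, with a median of 0.0034. Of those with a mean of 100 to 500 TPM, 6.85% rose and 72.3% were above 0, with a median of 0.063. The 11 chaperones lie inside, below and above that range and were not matched to it in level. Their summed level, as deposited, was between 1770 and 1851 TPM in cct3A(RNAi) and between 1450 and 1526 TPM in gfp(RNAi). HSPA8 (dresden_comp320_c0_seq1), a cytosolic HSP70, was at 727 ± 29.7 TPM in cct3A(RNAi) and 529 ± 25.3 TPM in gfp(RNAi) (SD, n = 3 each, log2 change 0.46, limma adjusted p = 0.0106). HSP90AA1, a cytosolic HSP90, had a log2 change of 0.42 (adjusted p = 0.00409), HSPA4L, an HSP110 relative that acts on HSP70, one of 0.19 (0.0422), and DNAJB1, an HSP40 co-chaperone, one of 0.18 (0.0350). Transcripts of the HSP70 family have related sequences and may share reads, so the level of a single copy is uncertain. With all libraries rescaled to the same sum, 2 of the 11 rose and 0 fell, and 2 rose without any 1 of the cct3A(RNAi) libraries or gfp(RNAi) replicate 3, and 1 without replicate 1 or 2 of gfp(RNAi).

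Tubulins and the mitochondrial chaperonin moved less uniformly. Of 4 alpha-tubulins, whose products are folded by TRiC, only TUBA1A dresden_comp718_c0_seq1 rose, at 137 ± 5.92 TPM in cct3A(RNAi) and 119.7 ± 2.75 TPM in gfp(RNAi) (SD, n = 3 each, log2 change 0.19, limma adjusted p = 0.0466). The other transcript named TUBA1A, dresden_comp2143_c0_seq1, was lower in cct3A(RNAi) without passing (log2 change -0.15, limma adjusted p = 0.163). The median of the 4 was 0.044, against 0.0034 for all tested transcripts and 0.063 for those of 100 to 500 TPM. Of all tested transcripts 1.78% passed as higher, and 6.85% of those in that range. The call of TUBA1A dresden_comp718_c0_seq1 was lost with all libraries rescaled to the same sum, where 0 of the 4 rose. It was also lost in every fit that left out 1 library. The mitochondrial chaperonin HSP60, a relative of TRiC, had 2 transcripts, and neither passed. HSPD1 dresden_comp141_c0_seq1, which the study chose on these libraries, was at 902 ± 22.4 TPM in cct3A(RNAi) and 798 ± 25.0 TPM in gfp(RNAi) (SD, n = 3 each, log2 change 0.18, limma adjusted p = 0.0520). The other, scarcer HSPD1 transcript, dresden_comp6294_c0_seq1, was lower in cct3A(RNAi) (log2 change -0.15, limma adjusted p = 0.194).

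Transcripts that differ between stem cells and differentiated cells were measured alongside. Of 50 transcripts enriched in sorted stem cells, 2 rose and 4 fell, with a median log2 change of -0.040 and 16 above 0, against 1.78% risen, 2.46% fallen and 50.9% above 0 over all tested transcripts. Their summed level was between 1406 and 1463 TPM in cct3A(RNAi) and between 1388 and 1441 TPM in gfp(RNAi), so the groups overlapped as deposited. Of 50 transcripts enriched in sorted differentiated cells, 5 rose and 4 fell, with a median of 0.080 and 35 above 0. Of all tested transcripts with a mean of 100 to 500 TPM, 72.3% were above 0, with a median of 0.063, and 6.85% passed as higher. Neither list was matched to that range in level. The summed level of the differentiated-cell transcripts was between 3818 and 4011 TPM in cct3A(RNAi) and between 3566 and 3672 TPM in gfp(RNAi). Library sums were higher in every cct3A(RNAi) library than in any gfp(RNAi) library, so both summed levels depend on the deposited scaling. They were not expressed relative to each library's sum. The calls in both lists were few in every fit that left out 1 library, where 0 or 1 rose and 0 or 1 fell in each list. With all libraries rescaled to the same sum, 1 rose and 6 fell among the stem-cell transcripts, and 1 rose and 4 fell among the differentiated-cell transcripts. Falls were frequent under that scaling, where 1259 of 18073 tested transcripts were called and only 8.18% of these calls were higher. After quantile normalisation 1 rose and 4 fell among the differentiated-cell transcripts. With no filter, 1 rose and 0 fell among the stem-cell transcripts, and 2 rose and 0 fell among the differentiated-cell transcripts. The part of cell composition in the changes of the subunits was not tested.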

How the data were processed

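RNA-seq libraries were single-end. The authors selected reads that map to the Dresden planarian transcriptome, estimated abundances with kallisto (0.43.0, from the submitters' processing notes) and normalised them with sleuth. The deposited signal is TPM after the authors' division by library size factors. It holds no counts, so no count model and no counting interval was used. A test planned for unscaled TPM was kept, on the log scale. There were 0 columns not assigned to a library and 0 identical pairs of libraries.

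Values were transformed to log2(value + 0.5), which understates fold changes of low transcripts. Transcripts averaging 1 TPM or more (18062) were tested with limma (3.58.1, R 4.3.3), two-sided, using eBayes with a trend of variance on mean, Benjamini-Hochberg adjustment over all of them and a threshold of 0.05. For relative changes the same fit was run after each library was divided by the geometric mean of the other 6 subunits. Fits were checked on simulated data for recovery of known changes in the estimates. That check does not bear on the calls near the threshold. Subunits and lists were chosen with earlier results of these data known. Named genes were all subunits and the transcripts nearest in profile, of which those without a name are only in part printed. From the chaperone, alpha-tubulin and HSPD1 lists they were the members that passed, or otherwise the one with the smallest p. The other TUBA1A and HSPD1 transcripts are also given, since they share a name with one chosen by this rule. Identifiers and names come from the study's gene tables. No genome or sequence was used, and gonad-specific cct paralogues were not analysed here.

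Alternatives were a filter at 5 TPM or none, pseudocounts of 0.1 and 1, eBayes without a trend or robust, other scalings, the replicate number as a block, each library left out in turn, and, chosen after seeing the data, a reference without cct6 and cct4B.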

Additional observations from a re-analysis of the deposited data

How the results depend on the processing

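cct3A kept its call under every alternative. Of the 7 other subunits, 4 passed as analysed, 1 with no filter, 0 without a trend, 1 after quantile normalisation, 1 with libraries rescaled to the same sum, and 0 to 2 with 1 library left out. Without a trend 6 of the 7 had an unadjusted p under 0.05. cct7 also passed with a filter at 5 TPM (adjusted p = 0.0480). cct4B reversed to -0.011 after rescaling to the same sum. The summed level of the 7 had a ratio of 1.12 as deposited, 1.07 with equal sums and 1.07 after quantile normalisation, which also set the spread of log2 levels in gfp(RNAi) at 0.480. Of the relative calls, 2 as analysed, 0 passed without a trend, where 2 had an unadjusted p under 0.05, and 0 to 1 with 1 library left out. The relative change of cct5 ranged from -0.0032 (without cct3A(RNAi) replicate 2) to 0.015 (without gfp(RNAi) replicate 2) with 1 library left out, and was -0.0021 without gfp(RNAi) replicate 3. With a reference free of cct6 and cct4B, chosen after seeing the data, the relative changes were 0.10 for cct6 (adjusted p = 0.0343) and -0.093 for cct4B (0.0438). The calls over all transcripts numbered 766 as analysed, 33 without a trend, 314 with no filter, 1284 with a filter at 5 TPM, 1259 after rescaling to the same sum and 24 to 489 with 1 library left out. The cause of these differences was not tested.

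The replicate numbers were not taken as pairs, since same-numbered libraries deviated together only weakly (correlations 0.048, 0.10 and 0.047), although every library correlated best with its own number. With the replicate block, 2 of the 7 subunits passed (cct2 and cct6), both relative calls held and 660 transcripts passed in all.

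Depth is not known from TPM, so precision rests on 3 libraries a group.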
